A study of Mus musculus with 32 samples.

Results

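The measurements concern 10 mouse genes whose products take long-chain fatty acids from activation to oxidation in mitochondria: the acyl-CoA synthetase genes Acsl3, Acsl6 and Acsbg1, the carnitine palmitoyltransferase genes Cpt1a and Cpt2, the acyl-CoA dehydrogenase genes Acadvl, Acadl and Acadm, and the trifunctional protein genes Hadha and Hadhb. They were picked by gene symbol, not by their values, and all 10 were matched, each to a single line, among 38738 symbols of the deposited table. The libraries were 4 pools of 10 cells each (pools 1 to 4, labelled P1 to P4) and 28 single cells (cells 1 to 28, labelled S1 to S28), all from the subventricular zone of the forebrain of mice at postnatal day 21. The labels name no treatment, genotype, strain, sex, sort or cell type for any library, and each comparison is between libraries of the same origin. They also tie no library to an animal: single cells are therefore a sample of cells and not replicates of a condition, and no test between groups was made. Values are FPKM (fragments per kilobase of transcript, scaled to the mapped fragments of the library), which are per length, and a gene is called found in a library at FPKM of at least 1.

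Fatty acids are activated to acyl-CoA by synthetases, and a long-chain acyl group then enters the mitochondrion as a carnitine ester. The outer-membrane enzyme CPT1 makes that ester and the inner-membrane enzyme CPT2 turns it back into acyl-CoA. In the matrix the chain is shortened in repeated rounds, which open with an acyl-CoA dehydrogenase chosen by chain length and, for long chains, close on the trifunctional protein. In brain, astrocytes are the cells best known for oxidising fatty acids, and the pathway has been studied in the neural stem cells of this zone.

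Of the 4 gene starts whose sequence is shown, 3 belong to the synthetase genes that were high together in a pair of cells, and the other lies between Hadha and Hadhb, which start back to back. Each line gives the RefSeq window (GRCm38.p6) around a transcript start, 5′ to 3′ on the gene's strand, in the order Acsl3 (chr1:78657575-78657874, plus strand), the most upstream of 3 Acsl6 windows (chr11:54303574-54303873, plus strand), Acsbg1 (chr9:54661836-54662135, minus strand) and Hadhb (chr5:30155003-30155302, plus strand). Capitals mark exact matches on either strand to GGGCGG (the GC box), CCAAT (the CCAAT box), AGGTCA (the hexamer bound by many nuclear receptors) and TATAAA (the TATA box). Adjoining matches run together, as where CCAAT and GGGCGG join in the Acsl3 window.
Acsl3: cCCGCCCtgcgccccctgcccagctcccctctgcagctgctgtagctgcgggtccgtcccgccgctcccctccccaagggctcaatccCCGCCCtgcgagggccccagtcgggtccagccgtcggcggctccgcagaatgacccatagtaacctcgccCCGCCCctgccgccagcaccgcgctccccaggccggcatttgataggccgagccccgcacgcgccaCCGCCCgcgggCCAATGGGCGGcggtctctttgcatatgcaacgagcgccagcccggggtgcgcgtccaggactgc
Acsl6: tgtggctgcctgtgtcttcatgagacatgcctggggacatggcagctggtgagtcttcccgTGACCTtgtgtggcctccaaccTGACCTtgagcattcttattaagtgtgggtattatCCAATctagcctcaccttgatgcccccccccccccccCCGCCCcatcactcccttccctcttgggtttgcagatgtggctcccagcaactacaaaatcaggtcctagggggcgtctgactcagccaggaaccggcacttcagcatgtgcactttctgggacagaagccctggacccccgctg
Acsbg1: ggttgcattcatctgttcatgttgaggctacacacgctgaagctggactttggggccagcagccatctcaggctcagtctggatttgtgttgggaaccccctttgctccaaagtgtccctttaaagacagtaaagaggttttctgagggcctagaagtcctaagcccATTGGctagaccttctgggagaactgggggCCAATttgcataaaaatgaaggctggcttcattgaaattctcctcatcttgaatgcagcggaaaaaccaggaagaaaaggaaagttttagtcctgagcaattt
Hadhb: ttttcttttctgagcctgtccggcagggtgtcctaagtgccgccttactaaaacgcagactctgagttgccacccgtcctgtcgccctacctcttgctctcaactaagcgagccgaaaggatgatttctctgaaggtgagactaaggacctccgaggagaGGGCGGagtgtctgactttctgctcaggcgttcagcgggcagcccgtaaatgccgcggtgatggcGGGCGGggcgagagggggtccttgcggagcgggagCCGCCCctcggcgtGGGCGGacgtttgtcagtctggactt
GC boxes stood 5 times in the Acsl3 window and 4 times in the Hadhb window, and the Acsbg1 window held CCAAT on either strand and no GC box. All 10 genes had a window, 12 windows in all. GGGCGG was in 9 of the 12 windows, from 7 of the 10 genes (35.7% of all 32851 RefSeq windows held it). CCAAT was in 5 of the 12, from 4 genes (37.4% of all windows). AGGTCA was in 4 of the 12, from Cpt1a, Acadvl, Acadm and Acsl6 (16.3% of all windows), and TATAAA in none (13.6% of all windows). The Hadha and Hadhb windows share 228 bases with the same letters (chr5:30155003-30155230). These matches describe letters in the windows and say nothing of what binds there.

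The pools had 10477 to 12869 genes found, and the single cells 2107 to 10169. Each library was described by which of 12 marker lists had the highest mean log2(FPKM + 1). The astrocyte list led in cells 11 and 14, the oligodendrocyte list in cells 4, 12 and 13, the endothelial list in cells 1, 2, 3, 6, 7, 8, 16 and 17, the ependymal list in cells 9 and 15, the choroid plexus list in cell 5, the neural stem and progenitor list in cell 10, the microglia list in cells 18 to 21 and the neuroblast list in cells 22 to 28. The oligodendrocyte list led in pools 1 and 4, and the endothelial list in pools 2 and 3. Cells 18 to 22 and cells 23 to 28 form 2 sets whose members share low values: of the genes at 500 FPKM or more in a cell of a set and under 5% of that in another cell of it, 94.3% to 100% were above 0 in that other cell, against 26.7% to 78.4% between pairs of the 17 cells outside the sets. The source of these low values was not tested. Several of the main counts and ratios that rest on the 11 cells are also given without them or with a 2% limit. That limit puts a value at 0 where it is less than that share of the gene's maximum in the set. No pair of libraries was identical.

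Across the 4 pools, 32 of 40 values of the 10 genes were at FPKM of at least 1, or 80%, against 60.4% for all genes found in any library. In the 28 single cells 110 of 280 values were, or 39.3%, against 26.1% for all such genes. The share was 22.7% in the 11 cells of the sets, against 17.5%, and 50% in the 17 other cells, against 31.8%. Cpt1a, Acadvl, Acadm, Hadha, Hadhb and Acsl3, 6 of the 10 genes, were found in all 4 pools, as were 37.3% of the 18854 genes found in a cell. A cell had a median of 3.5 of the 10 genes (lowest 1, highest 9). The median was 5 without the cells of the sets and 2.5 with the 2% limit. The highest count was in cell 5, led by the choroid plexus list, which also had the most genes found of any cell, and cells 18 to 21 and 27 had only 1 of the 10. Cell 5 lacked only Acsbg1, and pool 4 alone among all 32 libraries had all 10.

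**Figure D1:**
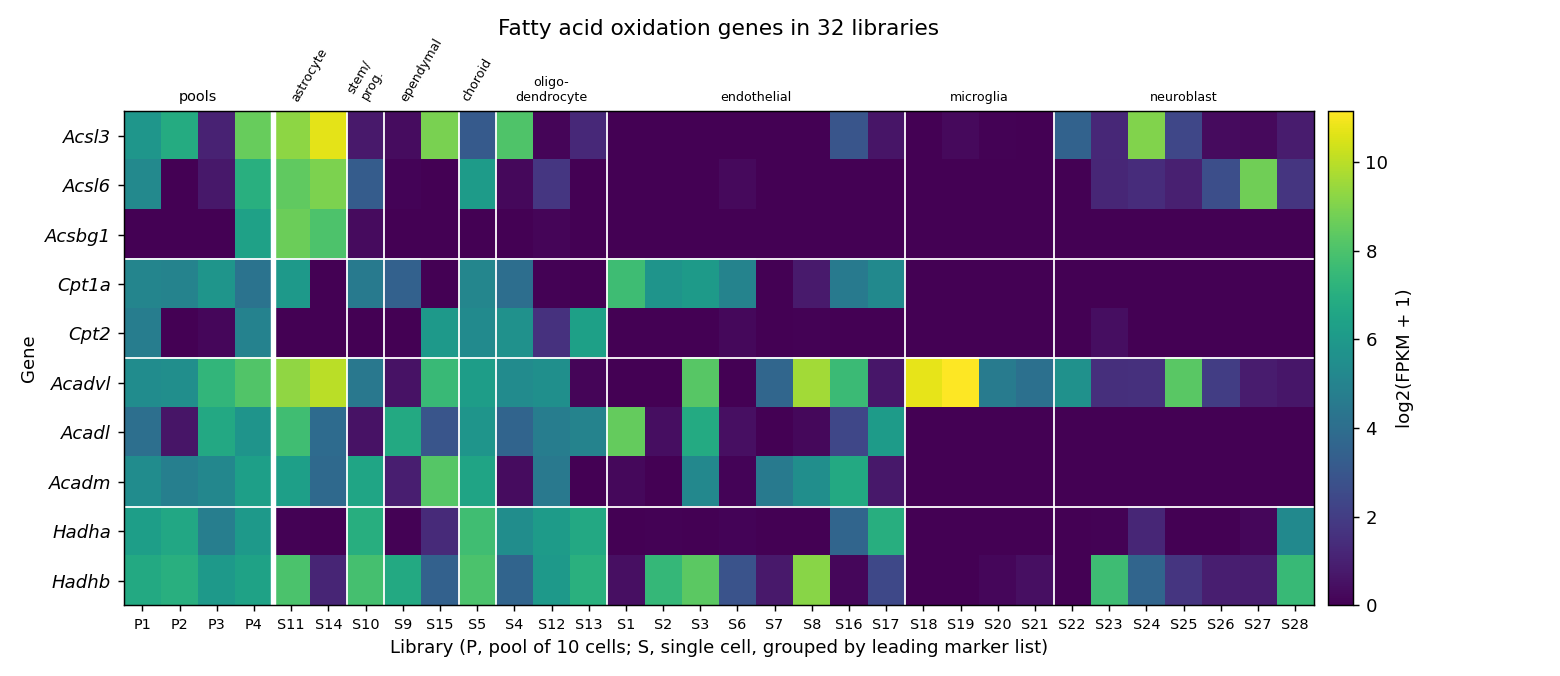
Heat map of log2(FPKM + 1) of the 10 fatty acid oxidation genes (rows, grouped by step) in the 4 pools of 10 cells (left) and the 28 single cells (right, grouped by leading marker list). Acsl3, Acsl6 and Acsbg1 are bright together in cells 11 and 14 and in pool 4. Cpt1a, Acadl, Acadm and Acsbg1 are at 0 in all 11 cells from cell 18 to cell 28.

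The acyl-CoA synthetase genes, whose products activate fatty acids, each had their highest single-cell value in a cell led by the astrocyte list. Acsbg1 (chr9:54604877-54661870), which codes for the bubblegum synthetase of long and very long chains, was at 0, 0, 0 and 81.8 FPKM in pools 1 to 4, so that pool 4 alone held it. Among single cells it was at 403 FPKM in cell 11 and 259 FPKM in cell 14, and the other 26 cells ranged from 0 to 0.258 FPKM with a median of 0. The lower of the astrocyte-led pair was thus far above every other cell, and the groups did not overlap, as for 1.24% of 15020 genes tested. Pool 4 was also the pool with the most astrocyte marker signal: its astrocyte list averaged 6.98 on the log2(FPKM + 1) scale with 14 of 14 markers found, against 1.93 to 2.60 with 7 to 9 markers found in pools 1 to 3. In a pool, fewer cells of a type and less RNA per cell cannot be told apart, and the part of cell makeup in the pool values was not tested.

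Acsl3 (chr1:78657825-78706987) codes for a synthetase of the endoplasmic reticulum and lipid droplets, and it was found in all 4 pools and in 11 of 28 cells. The pools held 57.1, 113, 1.12 and 381 FPKM in pools 1 to 4, a wide spread with pool 3 low and pool 4 high. It was at 609 FPKM in cell 11 and 1639 FPKM in cell 14, against a median of 0.261 and a highest value of 526 FPKM in the other cells. Those other high cells carried different leading lists: cell 24 (neuroblast) had 526 FPKM, cell 15 (ependymal) 480 FPKM and cell 4 (oligodendrocyte) 273 FPKM. Acsl3 was low in the endothelial-led cells, where only cell 16 had it, at 6.57 FPKM. With the 2% limit in the sets it was found in 9 cells, since cells 23 and 25 held only 1.38 and 4.14 FPKM beside the 526 FPKM of cell 24. Acsl3 shares 206 exonic bases with Utp14b on the same strand, which was at 0.457 FPKM in cell 14, at 0 in cell 24, at 23.04 FPKM in cell 4 and at 31.97 FPKM in cell 6, where Acsl3 was at 0. Reads from the shared bases cannot be told apart.

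Acsl6 (chr11:54303798-54364756) codes for a synthetase abundant in brain that handles long and polyunsaturated chains. It was at 37.4, 0, 0.649 and 130 FPKM in pools 1 to 4. All 10 choroid plexus markers were found in pools 1 and 4, and of 14 astrocyte markers 7 were found in pool 1 and 14 in pool 4. The part of cell makeup in these pool values was not tested. Among single cells Acsl6 was at 344 FPKM in cell 11 and 492 FPKM in cell 14. The other cells had a median of 0 and a highest value of 422 FPKM, and the oligodendrocyte-led cells at most 2.43 FPKM. The groups overlapped through cell 27 alone, a neuroblast-led cell of a set. Next came cell 5 with 69.3 FPKM and cell 10 with 8.61 FPKM. In cells 23, 24, 25, 26 and 28, which share a set with cell 27, it was at 1.001 to 5.32 FPKM, and with the 2% limit it was found in 6 cells instead of 11. The antisense gene Gm12224 shares 202 exonic bases with Acsl6, and it was at 114 and 213 FPKM in cells 11 and 14 and at 44.0 FPKM in pool 4. The table's strand setting is not given in the sources used here, so reads from the pair cannot be told apart, and Gm12224 was at 0 in cell 27.

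**Figure D2:**
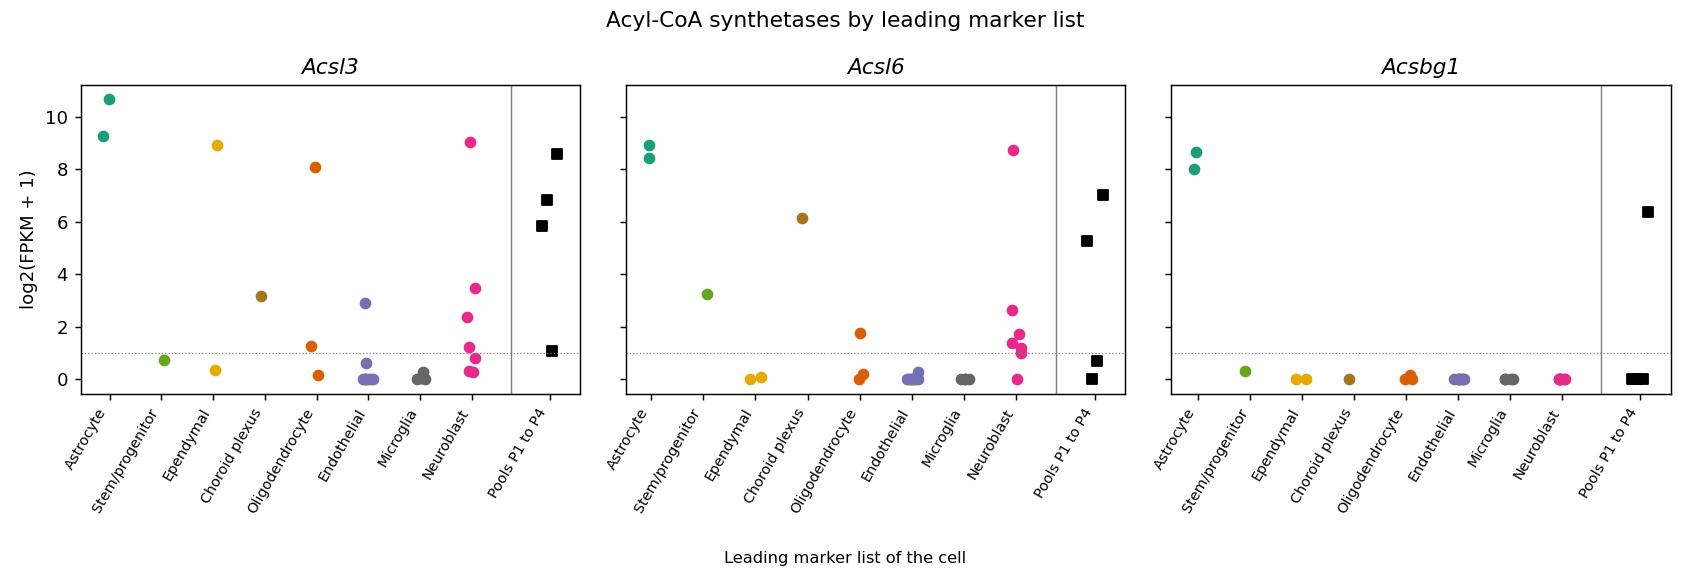
Values of Acsl3, Acsl6 and Acsbg1 as log2(FPKM + 1) by the leading marker list of each single cell (circles), with the 4 pools of 10 cells at the right (squares) and a dotted line at FPKM of 1. Cells 11 and 14, led by the astrocyte list, are the highest pair for Acsl3 and the only cells with Acsbg1, and 1 neuroblast-led cell lies between them for Acsl6.

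The carnitine palmitoyltransferases act in sequence on the same chains. Over the 28 cells Cpt1a was found in 11 and Cpt2 in 5, and 2 had both. Whether that overlap departs from what the counts of the 2 genes alone would give was not tested. Cpt1a (chr19:3323301-3385732), the liver-type isoform of the outer-membrane step and the step at which entry is controlled, was at 32.5, 30.4, 55.9 and 18 FPKM in pools 1 to 4, so all 4 held it. It was found in 11 of 28 cells, with a lowest value of 0, a median of 0.0095 and a highest of 202 FPKM. Of the 8 endothelial-led cells 6 had it, at 202 FPKM in cell 1, 66.7 in cell 3, 53.9 in cell 2, 38.4 in cell 17, 30.4 in cell 6 and 22.8 in cell 16. Cells 7 and 8 of that group were at 0 and 0.740 FPKM, and the highest cell outside it was cell 11 with 64.4 FPKM, so the groups overlapped. Cpt1a was listed at 0 in all 11 cells of the sets.

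Cpt2 (chr4:107903981-107923610), the inner-membrane enzyme, was at 25.4 and 29.97 FPKM in the oligodendrocyte-led pools 1 and 4, against 0 and 0.159 FPKM in the endothelial-led pools 2 and 3. It was found in only 5 cells, with a lowest and a median value of 0 and a highest of 78.8 FPKM. These were cell 13 with 78.8 FPKM, cell 15 with 61.8, cell 4 with 49.6, cell 5 with 38.8 and cell 12 with 1.98. They took in all 3 oligodendrocyte-led cells, the choroid plexus-led cell and 1 of the 2 ependymal-led cells. No endothelial-led cell had it: their highest value was 0.198 FPKM, in cell 6. Of 18854 genes found in a cell, 2.39% were found in every oligodendrocyte-led cell and in no endothelial-led cell, and 0.408% also in pools 1 and 4 and not in pools 2 and 3. Of 17067 genes found in a pool, 4.75% were found in pools 1 and 4 and not in pools 2 and 3. These patterns were drawn from the Cpt2 values themselves. The shares therefore say only how many genes meet them and lend no support to a link of Cpt2 with a cell type. The oligodendrocyte-led cells had 6803 to 9078 genes found, against 3061 to 6978 in the endothelial-led cells, and the part of that difference in the Cpt2 pattern was not tested. Pools 1 and 4 also differed from pools 2 and 3 in choroid plexus markers, all 10 of which were found in both, with list means of 7.81 and 6.68, against 1.21 and 1.73 in pools 2 and 3. Pool 2 held 9 of 12 oligodendrocyte markers, with a mean of 5.99, and Cpt2 at 0. The part of cell makeup in the split of the pools was not tested. At a limit of 5 FPKM the count was 2 of 3 oligodendrocyte-led cells, since cell 12 stood at 1.98 FPKM.

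Cells 4 and 5 alone had both transferases, 9 cells had Cpt1a without Cpt2, 3 had Cpt2 without Cpt1a and 14 had neither. Spearman's rho between the pair was 0.042 over 28 cells and -0.51 over the 17 cells outside the sets. It describes cells that differ in depth, and the labels do not say which cells were prepared together. Pools 1 and 4 held both genes, and pools 2 and 3 held Cpt1a alone.

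**Figure D3:**
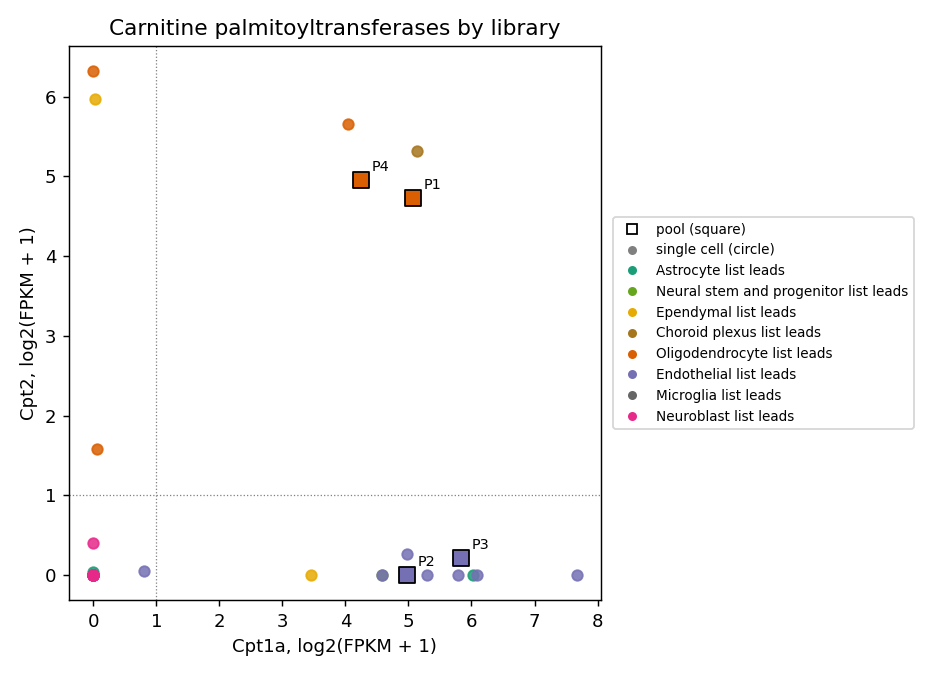
Cpt1a (horizontal) against Cpt2 (vertical), both as log2(FPKM + 1), in each single cell (circles, coloured by leading marker list) and each pool (squares, P1 to P4), with dotted lines at FPKM of 1. Endothelial-led cells and pools 2 and 3 lie along the bottom, oligodendrocyte-led cells and pools 1 and 4 lie above the dotted line, and many cells share the origin.

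The acyl-CoA dehydrogenases open each round of oxidation and differ in the chain length they take. Acadvl (chr11:70010183-70015411), for very long chains, was found in 20 of 28 cells. It was at 41.3, 45.2, 162 and 274 FPKM in pools 1 to 4, and in cells its lowest value was 0, its median 22.4 and its highest 2270.1 FPKM. Its highest cells were cells 19 and 18, led by the microglia list, at 2270.1 and 1715 FPKM, then cell 14 at 1005, cell 8 at 773 and cell 11 at 622 FPKM. The other 2 microglia-led cells, in the same set, held 23.7 and 16.4 FPKM, which are under the 2% limit there. With the 2% limit Acadvl was found in 15 cells and Hadhb in 17, and outside the sets Acadvl was in 11 of 17 cells, Hadhb in 14 and Acadl in 12. Its last exons overlap those of Dvl2, on the opposite strand, by 1151 bases. Dvl2 was at 0.029 and 0.072 FPKM in cells 18 and 19 beside the high Acadvl values there. In cells 24 and 27, where Acadvl was at 1.93 and 0.792 FPKM, Dvl2 reached 162 and 282 FPKM.

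Acadl (chr1:66830839-66863277), the long-chain enzyme, and Acadm (chr3:153922357-153944632), the medium-chain enzyme, were found in 12 and 10 cells. Acadl was at 15.7, 0.539, 105 and 53.6 FPKM in pools 1 to 4, and in cells its lowest value was 0, its median 0.339 and its highest 363 FPKM, in cell 1. Acadm was at 42.04, 27.2, 34.4 and 76.9 FPKM in pools 1 to 4, and in cells its lowest value was 0, its median 0.142 and its highest 295 FPKM, in cell 15. Pool 2 therefore had Acadm without Acadl. Of the 17 cells outside the sets 7 had both genes, 5 had Acadl alone, 3 had Acadm alone and 2 had neither.

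Acadl, Acadm, Cpt1a and Acsbg1 were listed at exactly 0 in all 11 cells of the sets, including the 4 microglia-led and 7 neuroblast-led cells. Of these genes Acsbg1 was found in only 2 of the 17 other cells. Among genes found in at least 1 of the 17 other cells, 26.9% were listed at 0 in all 11, and among the 5581 genes found in at least 8 of the 17, 6.25% were. The cells of the sets had a median of 3466 genes found, against 5932 in the 17 others. A 0 in this table can be a failed estimate, and whether these zeros come from the cell types or from how the sets were made cannot be told apart, since no cell led by the microglia or neuroblast list lies outside the sets. Cell 3, led by the endothelial list and outside the sets, had 10 of 12 microglia markers found, with a mean of 6.03, and held 66.7 FPKM of Cpt1a, 113 of Acadl and 35.6 of Acadm. Pool 2, with all 12 microglia markers found, held Cpt1a and Acadm.

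Hadha and Hadhb code for the alpha and beta subunits of the mitochondrial trifunctional protein, which form a single complex that carries out the later steps on long chains. The genes are neighbours on chromosome 5, on opposite strands (chr5:30118301-30155162, minus, and chr5:30155248-30184593, plus). By these positions 85 bases lie between their starts. The windows above are set by RefSeq transcript starts, which differ from these positions. Hadha was at 74.6, 103, 25.9 and 63.0 FPKM in pools 1 to 4, and Hadhb at 108, 128, 65.1 and 83.6 FPKM. Both subunits ranked the pools alike, with pool 2 highest and pool 3 lowest. Hadhb was the steadiest of the 10 genes over the pools, with a coefficient of variation of 28.7%, against 48.0% for Hadha and 200% for Acsbg1.

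In single cells Hadhb was found more often than Hadha. Hadhb was found in 18 cells (lowest 0, median 8.06, highest 570 FPKM) and Hadha in 10 (lowest 0, median 0.047, highest 211 FPKM). Of these, 9 cells had both, only cell 16 had Hadha without Hadhb, and 9 cells had Hadhb without Hadha. The gap was wide in several of the 9: Hadhb was at 570, 327, 257, 206 and 172 FPKM in cells 8, 3, 11, 23 and 2, where Hadha ranged from 0 to 0.060 FPKM. Cell 17 went the other way with 126 FPKM of Hadha and 4.42 FPKM of Hadhb. Cell 5 held both at a high level, with 211 and 253 FPKM, and all 3 oligodendrocyte-led cells held both. Spearman's rho between the subunits was 0.43 over 28 cells and 0.065 over the 17 outside the sets. The medians over the 45 pairs of the 10 genes were 0.27 and 0.16. Whether the overlap of the subunits departs from what their counts alone would give was not tested.

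A processed pseudogene, Gm13910 on chromosome 2 (chr2:108948780-108950727), has 99.8% identity to the Hadhb transcript over 1428 bases, and its line in the table followed that of Hadhb, with a rho of 0.98 over 28 cells. It was found in 15 cells, each with Hadhb, and never above it: over the 22 libraries with Hadhb the ratio of Gm13910 to Hadhb ranged from 0.0063 to 0.509 with a median of 0.216. The way reads were divided between the pair is not given in the sources used here, so Hadhb levels are uncertain. The part of the copy in cells with Hadhb and no Hadha was not tested, and in those cells Hadhb was above Gm13910.

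**Figure D4:**
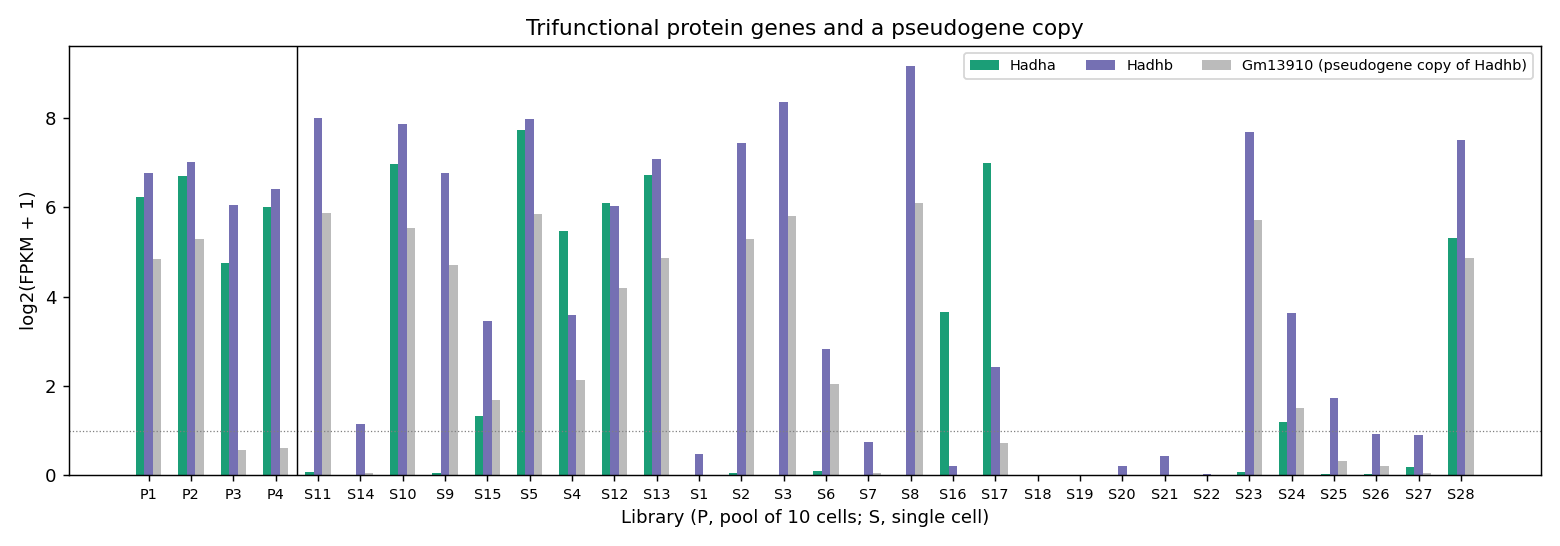
Bars of log2(FPKM + 1) for Hadha, Hadhb and the pseudogene Gm13910 in the 4 pools of 10 cells (left of the line) and 28 single cells, with a dotted line at FPKM of 1. All 4 pools hold both subunits, while 9 cells have Hadhb without Hadha and only cell 16 has Hadha without Hadhb.

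The pools were set against the single cells to ask whether summed cells give the same mean level as cells taken alone. All 10 genes passed the filter of a mean of at least 1 FPKM in either group, and 1 was higher and 1 lower by 2-fold or more, against 15.8% higher and 17% lower of 16145 genes. Hadha averaged 66.6 ± 31.96 FPKM in pools (SD, n = 4) and 26.1 FPKM in cells, a log2 ratio of 1.32 on the mean FPKM + 1 scale. Acadvl averaged 131 ± 111 FPKM in pools (SD, n = 4) and 274 FPKM in cells, a log2 ratio of -1.06, with no pool above the mean of the cells. With a difference of mean log2(FPKM + 1) in place of a ratio of means, Acadvl was higher in the pools, by 1.95, beside a median of 1.26 over all genes. A count of 1 in 10 is not above the background in either direction. Without the 11 cells of the sets no gene passed 2-fold (11.8% higher and 8.46% lower of 15947 genes), the ratio of Hadha being 0.70 and that of Acadvl -0.56.

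For the other 8 genes the means of pools and cells were within 2-fold, which rested on pool 4 for the synthetases: without it the ratio was -4.62 for Acsbg1, -1.85 for Acsl6 and -1.14 for Acsl3. The ratio was 0.74 for Cpt1a, 0.68 for Cpt2, 0.64 for Acadm and 0.26 for Acadl, and 0.12 for Acsl3, 0.073 for Hadhb, -0.19 for Acsl6 and -0.20 for Acsbg1. The SD of the pools' own ratios was 2.69 to 3.43 for Cpt2, Acadl, Acsl3, Acsl6 and Acsbg1, larger than each ratio. For Acadvl it was 1.34, larger than the size of its ratio. For Cpt1a, Acadm, Hadha and Hadhb it was 0.42 to 0.83, and the 0.42 of Hadhb was larger than its ratio. The median ratio of the 10 genes was 0.19, beside 0.10 over all genes tested. Scaling each library to the same upper quartile moved the median of all genes to -3.61 and that of the 10 to -4.64, since upper quartiles ran from 10.2 to 15.5 FPKM in pools and from 0.0079 to 10.5 FPKM in cells. Hadha then had a ratio of -1.67, which is above that shifted median.

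**Figure D5:**
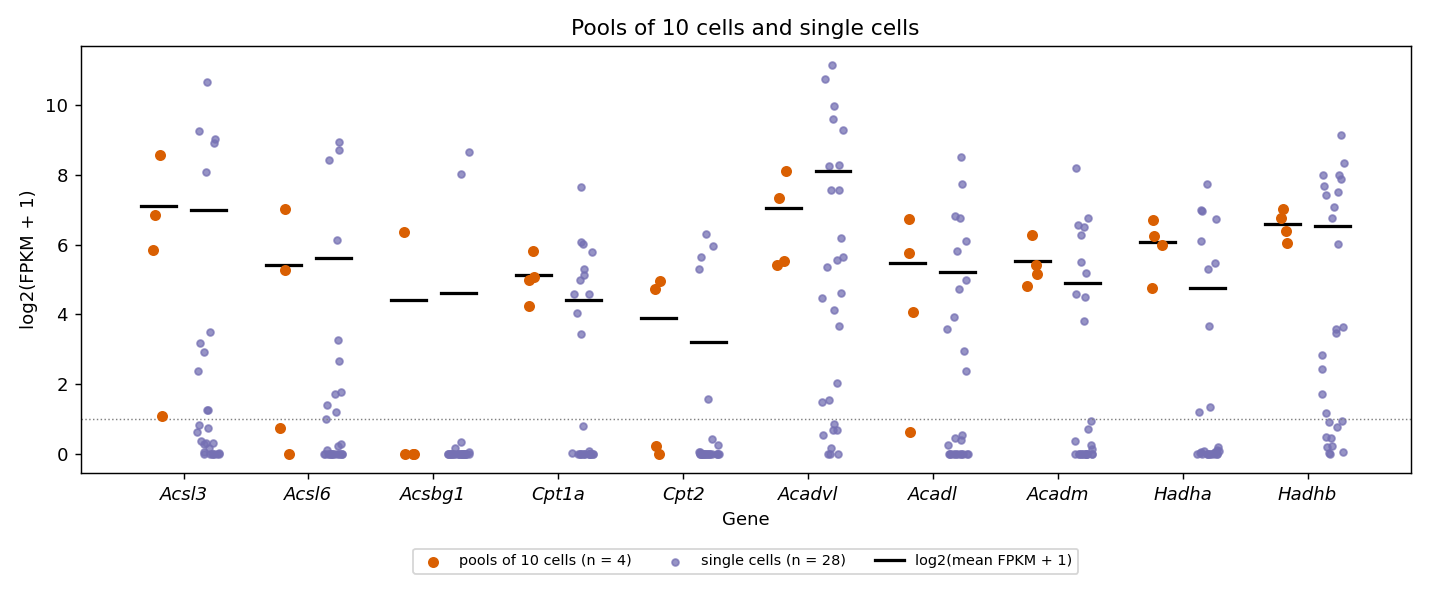
Values of the 10 genes as log2(FPKM + 1) in the 4 pools of 10 cells (left of each pair) and the 28 single cells (right of each pair), with a bar at log2 of the mean FPKM + 1 and a dotted line at FPKM of 1. Group means are close for most genes, Acadvl is lower in the pools and Hadha higher, and single cells spread from 0 to well above every pool.

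The 2 astrocyte-led cells were set against the other 26 to ask which steps of the pathway go with that marker list. No gene of the 10 is on the list. All 10 genes passed the filter: 5 were higher by 2-fold or more and 2 lower, against 18.6% higher and 58.9% lower of 15020 genes. The higher genes were Acsbg1 with a log2 ratio of 8.35, Acsl3 with 4.45, Acsl6 with 4.33, Acadl with 1.88 and Acadvl with 1.802. The lower genes were Hadha with -4.82 and Cpt2 with -3.29. The median ratio of the 10 genes was 1.26, beside -1.44 over all genes. Without the cells of the sets it was 0.57, beside -1.43 over all genes. With equal upper quartiles Acadvl and Acadl were at -1.91 and -1.77, beside a median of -2.68 over all genes. The lower of the 2 cells was above every other cell for Acsl3 and Acsbg1, as it was for 1.24% of all genes tested.

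Cells 11 and 14 were alike in the synthetases, Acadvl, Cpt2 and Hadha and unlike in Cpt1a, Hadhb, Acadl and Acadm. Cell 11 had 64.4 FPKM of Cpt1a, 257 of Hadhb, 214 of Acadl and 77.2 of Acadm, while cell 14 had 0, 1.23, 14.1 and 12.9 FPKM of these genes. Neither had Cpt2 or Hadha, whose values in them ranged from 0 to 0.060 FPKM. Cell 11 had 7277 genes found and cell 14 had 3916, and the part of that difference was not tested. Without cell 11 the ratio of Acadl was -1.05 and the median ratio of the 10 genes was -1.04, against 1.26 with both cells. Over all genes the median was -1.44 with both cells, and it was not computed without cell 11. Leaving out either cell leaves a single cell in the group, so no count of genes past 2-fold is given for these settings. Without either cell in turn, Acsbg1, Acsl3, Acsl6 and Acadvl stayed above 2-fold, at 7.9998 to 8.64, 3.56 to 4.99, 4.05 to 4.57 and 1.415 to 2.11.

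The 8 endothelial-led cells were set against the other 20 in the same way. All 10 genes passed the filter, 2 higher and 4 lower, against 26.4% higher and 43.4% lower of 15335 genes. Cpt1a had a log2 ratio of 2.66 and Acadl of 1.53, while Acsl3 had -6.56, Acsl6 -6.06, Acsbg1 -5.09 and Cpt2 -3.61. Cpt1a averaged 51.9 FPKM in the endothelial-led cells, where the lowest was 0, the median 34.4 and the highest 202, against a median of 0 and a highest of 64.4 in the others. Acadl ranged from 0 to 363 FPKM with a median of 2.28 in the endothelial-led cells, against a median of 0 and a highest of 214 in the others, and its ratio was 0.41 without the cells of the sets and 0.19 without cell 1. The ratio of Cpt1a was 1.61 without the cells of the sets and 1.91 without cell 1. Of the synthetases among the 10 genes, Acsl6 was at most 0.220 FPKM in this group and Acsbg1 was listed at 0 in all 8 cells. Acsl3 was found only in cell 16, at 6.57 FPKM. Other synthetase genes differed: Acsl1 and Acsl5 were each found in 4 of the 8 cells, and Acsl4 and Acsbg2 in 0.

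Oligodendrocyte-led cells, a group examined after the values had been seen, had 2 genes higher and 5 lower of the 10, against 22.4% higher and 42.9% lower of 15436 genes. The higher genes were Cpt2, at 1.98, 49.6 and 78.8 FPKM in cells 12, 4 and 13, with a log2 ratio of 3.14, and Hadha, at 43.1, 67.7 and 105 FPKM in cells 4, 12 and 13, with 1.76. Without the cells of the sets these ratios were 2.44 and 1.07, and with equal upper quartiles Hadha was at -0.11. All 3 cells also had Acadl, at 10.9 to 30.6 FPKM. The single cell led by the neural stem and progenitor list, cell 10, had 6 of its 10 markers found, and also 8 of 13 ependymal and 7 of 14 astrocyte markers. The list means were 4.08, 2.78 and 2.44. This cell had 23 FPKM of Cpt1a, 21.0 of Acadvl, 92.9 of Acadm, 124 of Hadha, 234 of Hadhb and 8.61 of Acsl6. Its Cpt2 was at 0, and its Acsl3, Acadl and Acsbg1 were at 0.675, 0.448 and 0.258 FPKM. With 1 such cell there is no spread to set these values against.

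A wider list of 57 fatty acid genes gave the setting of the 10. In pools over cells, 53 passed the filter and 11 were higher and 5 lower by 2-fold or more, against 15.8% higher and 17% lower of all genes, with a median ratio of 0.26 beside 0.10 over all genes. Among the higher genes were Scd1, a fatty acid desaturase gene, at 1.48, Acacb at 1.39, the carnitine transporter gene Slc22a5 at 1.36, Bdh1 at 1.29, Acsl1 at 1.27, Acaa2 at 1.21, Acad11 at 1.16, Cpt1c at 1.11, Slc27a4 at 1.09 and the receptor gene Ppara at 1.07. Ppara was found in no single cell and in pool 1 alone, at 4.37 FPKM. Without the set cells 3 of 53 genes tested were higher, beside 11.8% of all genes. Acsl1 was then at 0.62, Cpt1c at 0.55, Acaa2 at 0.51 and Acad11 at 0.50, while Slc22a5 stayed at 1.06. The SD of the pools' own ratios was larger than the ratio for Scd1, Acacb, Slc22a5, Bdh1, Acaa2, Cpt1c and Ppara. Without pool 2 the ratio of Slc22a5 was 0.22. Lower were Esrra at -3.42, Rxra at -1.78, the short-chain dehydrogenase gene Acads at -1.72, Acsl4 at -1.42 and Mlycd, whose product breaks down malonyl-CoA, at -1.07. Each of these 5 had its highest cell in a set, as Esrra in cell 28 at 1284 FPKM, and without the set cells none was lower by 2-fold: Esrra had 0.15, Rxra 0.41, Acads -0.16, Acsl4 0.58 and Mlycd -0.56. With equal upper quartiles Scd1, Slc22a5, Acsl1, Acaa2, Acad11 and Slc27a4 were below 0, at -2.72 to -0.045, all 6 above the shifted median of -3.61. Ehhadh and Cd36 were found in no library.

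In astrocyte-led cells over other cells, 50 of the 57 passed the filter, 18 higher and 19 lower, against 18.6% higher and 58.9% lower of all genes, with a median ratio of -0.28 beside -1.44 over all genes. Of the 18, 8 were found in both cells. Eci1, an enoyl-CoA isomerase of the mitochondrion, was at 387 and 603 FPKM in cells 11 and 14, and its highest value elsewhere was 366 FPKM. Srebf1, a regulator of lipid synthesis, was at 151 and 512 FPKM and Mlycd at 38.9 and 336 FPKM. Fabp7, the brain fatty acid binding protein gene, was at 583 and 27.1 FPKM, and Fabp5 at 1140.2 and 262 FPKM. Echs1 was at 182 and 451 FPKM and Acat1 at 197 and 249 FPKM. A further 10 higher genes were found in a single cell of the pair: Acox3, Bdh1, Abcd2, Abcd3, Slc27a1, Etfa, Acaa2, Acad9, Cpt1c and Acaa1a.

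By role, the carnitine shuttle list had 1 gene higher and 2 lower of 4 tested in the astrocyte-led cells, and the other mitochondrial oxidation genes 4 higher and 3 lower of 11, again beside 18.6% higher and 58.9% lower of all genes. All 3 other acyl-CoA synthetases tested, Acsl1, Acsl4 and Acsl5, were lower and found in neither cell. The 4 regulators tested, Ppard, Ppargc1a, Rxra and Esrra, were lower as well. Crat, Acads, Acad11, Slc22a5, Fabp3, Slc27a4, Decr1, Oxct1, Etfdh and Thrsp were also lower.

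Pairs of the 10 genes differed widely in how alike their values were from cell to cell. Over their 45 pairs Spearman's rho had a median of 0.27 and ran from -0.31 to 0.79 over 28 cells. Over the 17 cells outside the sets it had a median of 0.16 and ran from -0.51 to 0.75. These are descriptions of cells that differ in depth and, over the 28, in library set. No such median was computed for pairs of other genes, so whether the 10 go together more or less than others was not tested. Over 28 cells the highest pair was Cpt1a with Acadl and the lowest Acadvl with Hadha, while outside the sets the highest was Acsl6 with Acsbg1 and the lowest Cpt1a with Cpt2.

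The genes most like each of the 10 over the 28 cells, among 7410 genes found in at least 8 cells, were ranked by Spearman's rho. Cpt1a was closest to Mfsd2a (0.87), which codes for a lipid transporter of brain endothelium, then Gbas (0.86) and Id1 (0.85). Outside the sets these values were 0.68, 0.54 and 0.55. Hadhb was closest to its copy Gm13910, then Arf3 and 9030624J02Rik (0.79 each). Hadha was closest to Gbf1 (0.84), Stt3a (0.83) and Man2a2 (0.81). Acsl6 was closest to Hemk1 (0.88), Dclk1 (0.86) and Paxbp1 (0.82), Acsl3 to Sec61a2 (0.78), Scg3 (0.74) and Idh1 (0.73), and Acsbg1 to Sil1 (0.75), Atp1b2 (0.71) and Gm13554 (0.70). Acadl was closest to Spr, Sorbs3 and Taf10 (0.87 each), Acadm to Zbtb4 (0.84), Bag3 (0.82) and Tnfrsf19 (0.81), Cpt2 to Gm25291 (0.81), Slc5a3 (0.72) and Brd1 (0.71), and Acadvl to Mertk (0.66), Gmpr2 (0.62) and BC003331 (0.61). Restricted to the 17 cells outside the sets, the rho of the 3 named genes ranged over 0.45 to 0.69 for Acadl, 0.44 to 0.54 for Acadm, 0.62 to 0.84 for Cpt2, 0.46 to 0.71 for Acadvl, 0.73 to 0.79 for Hadha and 0.55 to 0.99 for Hadhb. They were 0.76 to 0.88 for Acsl3, 0.71 to 0.87 for Acsl6 and 0.68 to 0.77 for Acsbg1. Acadl, Acadm and Cpt1a, at 0 in all 11 cells of the sets, had lower values outside the sets for each of their named genes. So did Hadha, which was found in cells 24 and 28 of the sets. Acsbg1, also at 0 in all 11 cells, had higher values for Sil1 (0.77) and Atp1b2 (0.72) and a lower value for Gm13554 (0.68).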

How the data were processed

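The authors deposited a table of FPKM values for 28 single cells and 4 pools of 10 cells, with 39011 lines. Per the submitters' processing notes it was made with TopHat 1.41 and Cufflinks 2.02 on mm9. However, 96.0% of its gene IDs are in GENCODE release M21 and 99.7% of those overlap their GRCm38 position, so positions are given on GRCm38. Counts were not analysed here. From the spacing of low values, assuming fragments of 200 bases, depth was estimated at 6.17 to 20.9 times 1000000 fragments in cells 1 to 17. It was not clear in 12 libraries.

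Ratios are log2((mean FPKM of the first group + 1)/(mean FPKM of the other + 1)), over genes with a mean of at least 1 FPKM in either group. A ratio of at least 1 or at most -1 counts as 2-fold, and the pseudocount of 1 understates changes of low genes. No p-value is given, since no replicates of a condition are labelled. The SD over pools may be technical. The share of cells with a gene has a 95% Clopper-Pearson interval for counting error only: 0.877% to 23.5% for Acsbg1, 6.06% to 36.9% for Cpt2 and 51.3% to 86.8% for Acadvl. Genes named from the wider list are those past 2-fold in pools or astrocyte-led cells, or found nowhere, except a few that are not reported here by name. For each of the 10 genes the 3 closest by rho are named. The 10 genes, the lists and the groups were chosen with earlier results of these data known. Steps were tested on simulated data. Python 3.11.15, numpy 2.4.6, pandas 2.3.3, scipy 1.17.1 and matplotlib 3.10.9 were used. Near-identical copies were sought with BLAST among GENCODE transcripts, and copies of Acadm and a further copy of Hadhb were not analysed here.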

Additional observations from a re-analysis of the deposited data

Results flagged for a closer look

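Acsbg1 in pool 4 stood apart from the other 3 pools. It was at 81.8 FPKM there and at 0 in pools 1, 2 and 3, so the gap from pool 4 to the nearest pool, divided by the range of the 4 on the log2(FPKM + 1) scale, was 1, above Dixon's 95% critical value for 4 values. With the other 3 pools at 0 this quotient is 1 whatever the value in pool 4, as for Ppara in pool 1, so it says only that a single pool held the gene. Chance alone picks out some groups at this level. Pool 4 also had the highest astrocyte marker mean of the pools, 6.98, as given with the synthetase values, and the part of cell makeup was not tested.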

How the results depend on the processing

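No paired analysis was possible because no result comes from a test and the numbers shared by pools and cells only name libraries. The median count of the 10 genes found per cell was 2 at a limit of 5 FPKM. In pools over cells, with a difference of mean log2 values 9 genes were higher and 0 lower, beside 59.4% higher and 1.59% lower of all genes. The median was then 2.35, beside 1.26 over all genes. Acadvl (1.95), Acsl4 (0.32), Acads (0.87), Rxra (0.77), Esrra (0.73) and Mlycd (1.96) reversed, of which Acsl4, Acads, Rxra and Esrra lay below the median of all genes. With sums of 1000000, 2 were higher, beside 20.8% of all genes. With equal upper quartiles 0 were higher and 10 lower with a median of -4.64, beside 89.3% lower and a median of -3.61 over all genes, and Hadha (-1.67), Slc22a5 (-2.72), Acsl1 (-1.94), Acad11 (-1.46), Acaa2 (-0.23), Scd1 (-0.045) and Slc27a4 (-1.86) reversed, all above that median. Without the set cells 0 were higher and 0 lower, and Acsl4 (0.58), Rxra (0.41) and Esrra (0.15) reversed. Leaving out each pool gave 1 to 2 higher, 0 to 4 lower (4 without pool 4, 0 without pool 1 or pool 2) and medians of 0.087 to 0.44. In astrocyte-led cells, equal upper quartiles gave 3 higher and a median of -1.79, with Acadvl (-1.91) and Acadl (-1.77) reversed. Over all genes 14.2% were then higher and the median was -2.68. Mean log2 values gave a median of 3.43, beside -0.27 over all genes. Leaving out each cell gave 4 to 8 higher and medians of -1.04 to 1.61, with Acadl at -1.05 to 2.78. In endothelial-led cells, 1 was higher without the set cells, beside 24.4% of all genes. The median was -2.05 with equal upper quartiles, beside -1.14 over all genes. Leaving out each of these cells, chosen after seeing the data, gave 2 to 3 higher and medians of -2.16 to -0.68. Shares over all genes are not given here for settings that left out a single pool or cell. In oligodendrocyte-led cells equal upper quartiles reversed Hadha (-0.11). The causes were not tested. Of the other settings of these results 70 stayed within the limits set, those that left out Hadhb, chosen after seeing the data, among them. A gene in 0 of 28 cells, such as Ppara, may be in up to 12.3% of cells by the Clopper-Pearson interval, which counts cells alone and does not cover depth.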
